A study of Mus musculus with 12 samples.

Results

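Interferon-stimulated genes are the genes that a cell switches on when interferon reaches its receptors. The 39 described here were chosen by symbol as sensors, transcription factors and antiviral effectors of the response, and all 39 were found among the 16218 genes of the table. Averaged over the 12 libraries, all 39 reached 5 normalized counts, as did 14906 genes in all. They fell into 9 groups by role: cytosolic RNA sensors, transcription factors, the ISG15 system, IFIT proteins, enzymes of double-stranded RNA, membrane and viperin genes, guanylate-binding and immunity-related GTPases, the PARP and DTX3L genes, and 5 others.

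The series compared 3 groups of 4 wild-type female mice, 12 weeks old, by poly(A) RNA sequencing of the heart with single reads of 61 bases. Sham hearts were operated without infarction. MI+PBS hearts had a myocardial infarction, made by tying off the left anterior descending coronary artery for good, and received phosphate-buffered saline, and MI+Agrin hearts had the same ligation and received agrin, a proteoglycan of the basement membrane. RNA was taken 2 weeks after infarction. Dose, route and the part of the heart taken are not given in the labels, and each library is named below by its group and its label number (Sham 2 to 5, MI+PBS 1, 2, 3 and 5, MI+Agrin 1, 3, 4 and 5). The design text counts 4 animals a group.

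Interferons signal through a pair of receptor chains to the kinases JAK1, JAK2 and TYK2. Type I interferons, such as IFN-beta, act on their target genes through the interferon-stimulated response element (ISRE), while interferon-gamma acts through the gamma-activated sequence (GAS). The products include RNA sensors, enzymes that block translation, proteins that stop virus entry at membranes, and GTPases that attack the vacuoles of intracellular parasites. In the injured heart, macrophages that take up DNA from dying cells are known as a source of type I interferon responses.

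All libraries carried the markers of heart muscle, with summed levels of 10 cardiomyocyte genes between 1107802 and 2013442 normalized counts. Depth was even, at 20238512 to 22742027 recovered reads in the 11 libraries used as counts. In Sham 2 the value of 1 read lay too near 1 to be told from rounding. Among the members, 3 libraries stood apart from their own groups. Sham 4 was the lowest of the 4 sham hearts in 33 of 39 members (28.2% of all genes) and MI+Agrin 1 the lowest of its group in 31 (29.3% of all genes). MI+Agrin 4 was the highest of its group in 31 (22.3% of all genes). Calls that changed without 1 of these hearts are named beside the results.

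Promoter sequence was at hand for 31 of the 39 members in RefSeq (GRCm38.p6), and was searched in the 250 bases before each start site. The letters of an ISRE-like match were GAAANNGAAA or, on the other strand, TTTCNNTTTC. Those of a GAS-like match were TTCNNNGAA, which reads the same on both strands. An ISRE-like match stood in 13 of 31 members (41.9%) and in 3.46% of 27025 genes, and a GAS-like match in 8 members (25.8%) and 8.13% of genes. All 5 GTPase genes with a promoter in the table (Gbp2, Gbp3, Gbp7, Irgm1 and Igtp) held an ISRE-like match, as did 8 of the other 26. For Dhx58, Gbp4, Gbp6, Iigp1, Parp14, Parp9, Rtp4 and Usp18 no promoter sequence was at hand, so none was searched for these letters. A match is a run of letters and not a measured site.

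Printed first are 3 GTPase genes that were lower after infarction, Gbp7 at chr3:142530225-142530335 (plus strand), Gbp3 at chr3:142559944-142560025 (plus strand) and Igtp at chr11:58199456-58199555 (plus strand). They are followed by Ifitm2 at chr7:140955988-140956061 (minus strand) and Irf8 at chr8:120736182-120736357 (plus strand), which were higher, and Isg15 at chr4:156200819-156200918 (minus strand) and Ifit1 at chr19:34640780-34640870 (plus strand), which passed no test and varied widely between hearts. Each is written in the gene's own direction, 5′ to 3′, and ends at or before its start site. Capitals mark ISRE-like and GAS-like matches.
Gbp7: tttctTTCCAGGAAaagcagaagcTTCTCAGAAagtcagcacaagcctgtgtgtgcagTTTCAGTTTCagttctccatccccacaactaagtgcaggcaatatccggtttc
Gbp3: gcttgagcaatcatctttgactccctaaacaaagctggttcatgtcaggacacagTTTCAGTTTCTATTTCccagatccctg
Igtp: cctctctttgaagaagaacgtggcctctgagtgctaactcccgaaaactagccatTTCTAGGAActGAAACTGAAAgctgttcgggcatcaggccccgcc
Ifitm2: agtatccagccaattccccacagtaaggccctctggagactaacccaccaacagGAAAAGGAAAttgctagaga
Irf8: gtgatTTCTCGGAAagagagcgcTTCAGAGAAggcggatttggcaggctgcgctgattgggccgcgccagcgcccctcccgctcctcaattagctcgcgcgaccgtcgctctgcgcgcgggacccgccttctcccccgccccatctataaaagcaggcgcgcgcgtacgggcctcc
Isg15: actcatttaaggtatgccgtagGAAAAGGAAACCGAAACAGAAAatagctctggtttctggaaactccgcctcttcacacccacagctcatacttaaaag
Ifit1: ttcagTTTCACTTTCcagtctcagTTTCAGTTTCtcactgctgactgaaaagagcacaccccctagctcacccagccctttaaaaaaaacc
Genes that moved in opposite directions both held ISRE-like letters, as in Gbp3 and Ifitm2. Irf8 held a pair of GAS-like matches and no ISRE-like one.

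Levels between genes were compared per kb of exon (GENCODE M21, mm10). In sham hearts the membrane proteins led, with Ifitm3 at 3309 ± 458 normalized counts per kb (SD, n = 4), Ifitm2 at 2361 ± 122 and Bst2 at 715 ± 130 (n = 4 each). Gbp2 followed at 414 ± 71.8, then Ifi35 at 270.1 ± 13.1 and Trim25 at 267 ± 12.7. The lowest was Ifi44, at 22.1 ± 7.84. Neighbours in the middle of this order did not differ beyond their spread, as in Irf1 (187 ± 16.5) and Isg15 (185 ± 46.2), while the step from Ifitm2 to Bst2 was larger than either SD. Some reads could not be given to 1 gene with certainty. Over 10% of exon bases overlapped another gene in 5 members (Ifitm2, Rtp4, Gbp6, Gbp7 and Ifi35). Over 10% of the runs of 61 bases occurred in another gene in 6 members (Ifit3, Oas1a, Ifitm2, Rtp4, Gbp6 and Gbp7), up to 69.2% in Gbp6, 52.5% in Oas1a (with Oas1g) and 46.6% in Ifit3 (with Ifit3b). Values of these genes are uncertain to that extent.

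**Figure D1:**
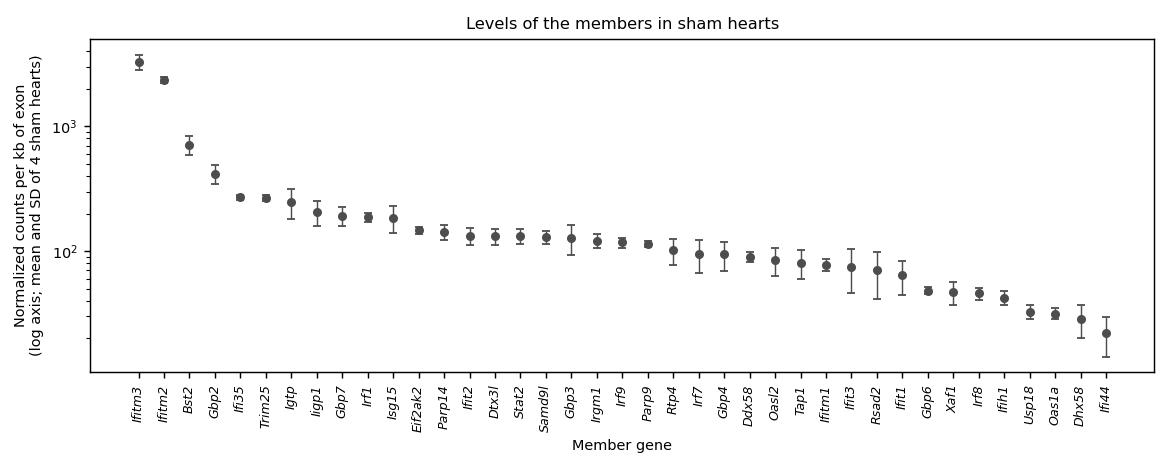
Normalized counts per kb of exon on a log axis for the 39 members in the 4 sham hearts, with the mean as a point and the SD as a bar. Ifitm3 and Ifitm2 stood at 3309 and 2361, above Bst2 at 715, and Ifi44 was lowest at 22.1.

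After infarction, members of different roles moved in different directions. Against sham hearts, MI+PBS hearts had 5 members higher (Dhx58, Irf8, Ifitm1, Ifitm2 and Ifitm3) and 6 lower (Gbp2, Gbp3, Gbp4, Gbp7, Iigp1 and Igtp). The higher ones were 12.8% of the members, beside 22.6% of all genes, and the lower ones 15.4%, beside 21.8% of all genes, so both shares were below those over all genes. The 6 that fell were all GTPase genes, out of 8 in that group. Differences are on the log2(normalized count + 1) scale and were tested with limma across all 14906 genes, called at an adjusted p below 0.05. The groups did not overlap in 10 members (25.6%), beside 41.9% of all genes. The median member difference was 0.04, with 22 members above 0 and 17 below, beside a median of -0.01 over all genes. Without Sham 4 there were 4 higher and 7 lower members, Dhx58 being lost and Dtx3l added, beside 19.9% and 18% of all genes. The median turned to -0.08 without Sham 4, to -0.02 without MI+PBS 1 and to -0.03 without MI+PBS 2.

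**Figure D2:**
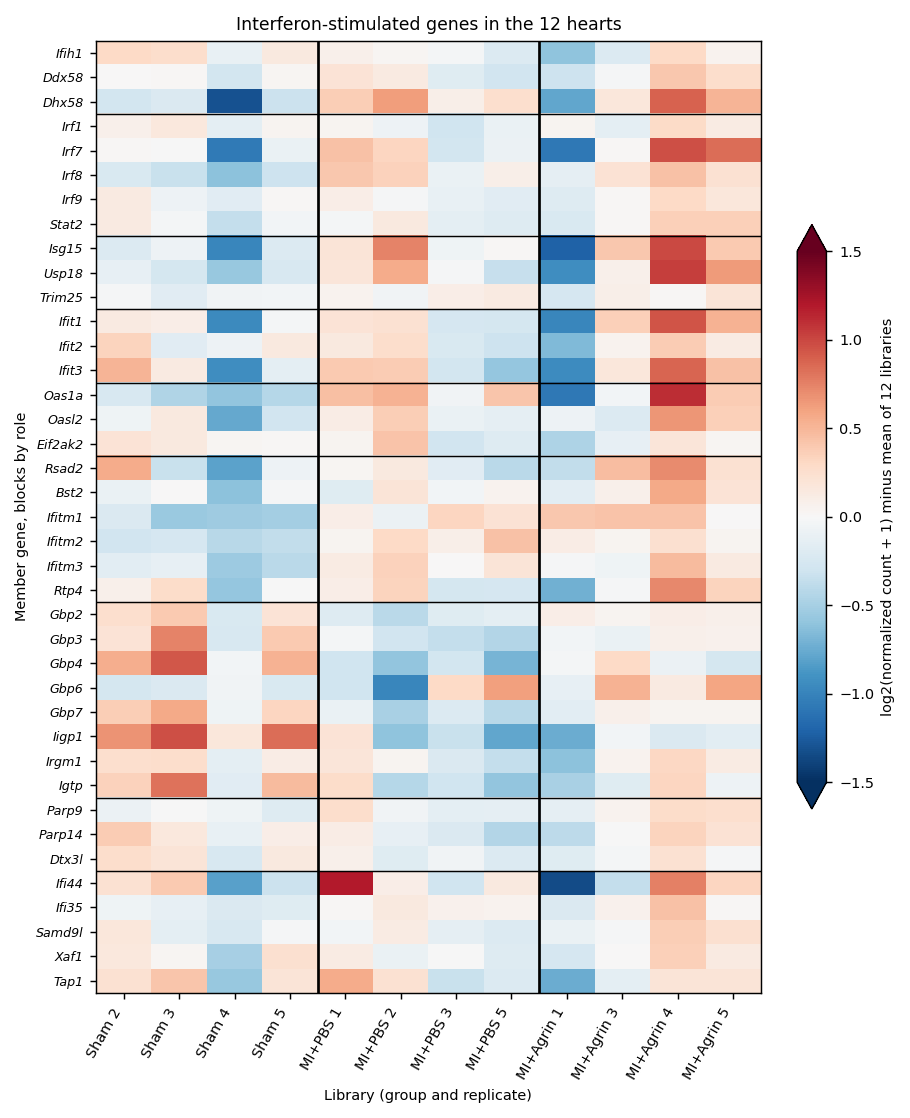
Heat map of log2(normalized count + 1) minus the mean of the 12 libraries, with 1 row a member in blocks by role and 1 column a heart. Sham 4 and MI+Agrin 1 are blue and MI+Agrin 4 is red through most rows, and most of the GTPase block is red in the sham hearts 2, 3 and 5 and mostly blue in the MI+PBS hearts.

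The guanylate-binding proteins (GBPs) and immunity-related GTPases (IRGs) are large interferon-induced GTPases that coat and break the vacuoles in which bacteria and parasites live. Gbp7, Gbp3 and Gbp2 lie in 1 cluster on chromosome 3, at chr3:142530342-142550149, chr3:142560026-142573209 and chr3:142620602-142638008, and Gbp4 and Gbp6 on chromosome 5, at chr5:105115767-105139586 and chr5:105270702-105293698. Values are listed in the order of the label numbers. Gbp4 was at 715, 929, 474 and 701 in the sham hearts, 396, 323, 402 and 301 in the MI+PBS hearts and 478, 602, 459.9 and 405 in the MI+Agrin hearts, in normalized counts. Every MI+PBS heart was below every sham heart, the nearest being 402 and 474. The log2 difference was -0.96 ± 0.18 (SE; adjusted p = 0.00105), which is 0.515 of the sham level. Gbp7 was at 1119, 1289, 826 and 1083 in the sham hearts, 811, 621, 751 and 651 in the MI+PBS hearts and 779, 914, 895 and 891 in the MI+Agrin hearts. Its sham and MI+PBS hearts did not overlap either, but Sham 4 at 826 came close to MI+PBS 1 at 811. The difference was -0.60 ± 0.12 (SE; adjusted p = 0.00184).

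Gbp2, the most abundant GTPase gene of the list per kb, was at 1101, 1212, 787 and 1069.8 in the sham hearts, 808, 698, 819 and 839 in the MI+PBS hearts and 991, 955, 989 and 976 in the MI+Agrin hearts. Sham 4 lay inside the MI+PBS range and the other sham hearts above it, and the MI+Agrin hearts were closely grouped above every MI+PBS heart. The difference between MI+PBS and sham was -0.38 ± 0.11 (SE; adjusted p = 0.0119). Gbp3 was at 384, 559, 283 and 439 in the sham hearts, 328, 273, 260.4 and 245 in the MI+PBS hearts and 323, 312, 353 and 348 in the MI+Agrin hearts. Again Sham 4 fell among the MI+PBS hearts while Sham 3 was far above them. Here the difference was -0.56 ± 0.16 (SE; adjusted p = 0.0151). Gbp6 was the exception among the GBPs, with 274, 281, 316 and 279.8 in the sham hearts, 267, 166, 403 and 502 in the MI+PBS hearts and 302, 472, 360.4 and 496 in the MI+Agrin hearts. Its highest MI+PBS value was 3.02 times its lowest, and the MI+PBS range enclosed all sham values. The difference was 0.099 ± 0.27 (SE; adjusted p = 0.794), and most of its sequence is shared with another gene model.

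Iigp1 (Irga6), an IRG that loads onto parasite vacuoles, fell most of all members. It was at 1179.6, 1446, 829 and 1318 in the sham hearts, 850.3, 485, 587 and 431 in the MI+PBS hearts and 441, 717, 636 and 659 in the MI+Agrin hearts. The single overlap was between Sham 4 at 829 and MI+PBS 1 at 850.3. The difference of -1.04 ± 0.22 (SE; adjusted p = 0.00228) left 0.487 of the sham level. Igtp (Irgm3), an IRG that regulates the others from host membranes, was at 481, 668, 336 and 526 in the sham hearts, 458, 280.3, 308 and 251 in the MI+PBS hearts and 269.6, 335, 475 and 359 in the MI+Agrin hearts. Sham 4 and MI+PBS 1 again overlapped the opposite group. The difference was -0.63 ± 0.23 (SE; adjusted p = 0.04), and this call held in only 13 of 25 settings. It was lost without any 1 of 7 libraries (Sham 2, 3 and 5, MI+PBS 2, 3 and 5 and MI+Agrin 5). It was also lost with no filter, no trend, the replicate block, edgeR, and MI+PBS 2 and MI+Agrin 1 left out together, at adjusted p up to 0.119. Irgm1, another regulator of this kind, ranged from 580.1 to 776 in sham and from 505 to 729.8 in MI+PBS hearts, with a difference of -0.21 ± 0.18 (SE; adjusted p = 0.37). The calls on Gbp2, Gbp3, Gbp4, Gbp7 and Iigp1 were kept in all 25 settings tried, Sham 4 left out included.

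**Figure D3:**
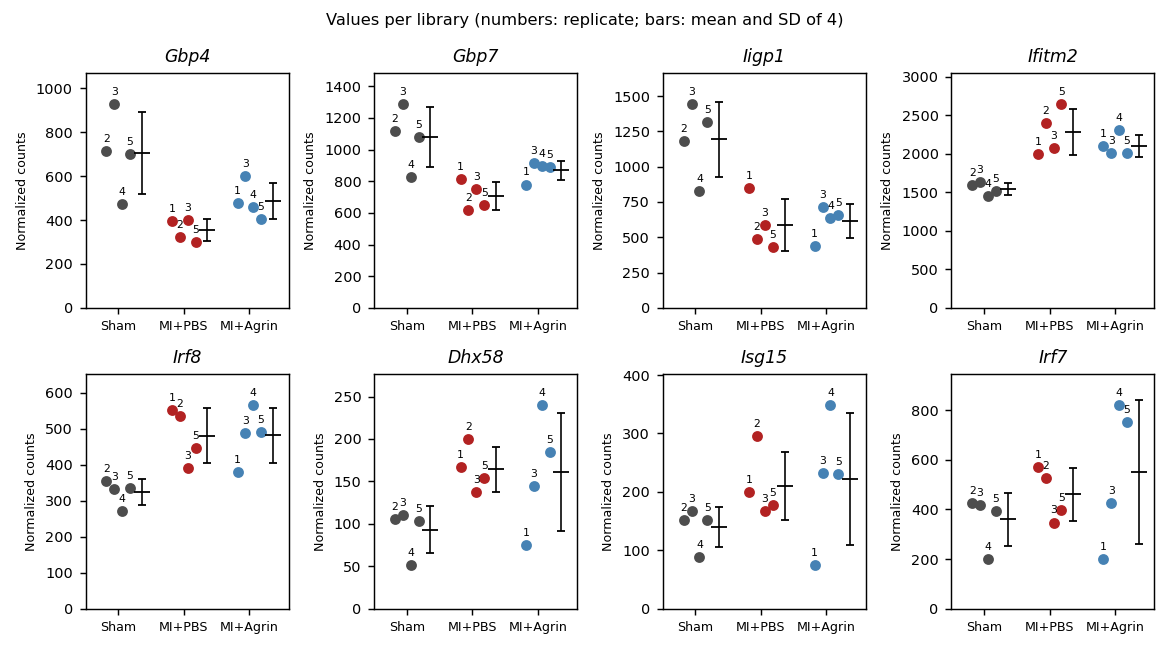
Normalized counts of 8 members in each heart, marked with its label number, with the mean and SD of the 4 hearts beside them; each axis starts at 0. Gbp4, Gbp7 and Iigp1 are lower in the MI+PBS hearts, Ifitm2 and Irf8 higher, and Dhx58, Isg15 and Irf7 show the low Sham 4 and MI+Agrin 1 and the high MI+Agrin 4; Isg15 and Irf7 were added after their values were seen.

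The interferon-induced transmembrane proteins keep viruses from fusing with cell membranes, and their genes Ifitm2, Ifitm1 and Ifitm3 lie close together on chromosome 7, at chr7:140954837-140955987, chr7:140967221-140969825 and chr7:141009586-141010770. All 3 were higher after infarction. Ifitm2 was at 1591, 1631, 1454 and 1510.1 in the sham hearts, 2001, 2399.7, 2072 and 2648 in the MI+PBS hearts and 2105, 2005, 2305 and 2004 in the MI+Agrin hearts. The sham hearts ended at 1631 and the infarcted hearts of both groups began at 2001. Its difference of 0.55 ± 0.084 (SE; adjusted p = 0.000277) had the smallest p among the members. Ifitm1 was at 100.1, 78.8, 80.3 and 81.8 in the sham hearts, 125, 109.6, 147 and 136 in the MI+PBS hearts and 155, 157, 157 and 118 in the MI+Agrin hearts. No infarcted heart reached down to the highest sham heart, Sham 2. The difference was 0.60 ± 0.13 (SE; adjusted p = 0.00323). Ifitm3, the most abundant member, was at 2472, 2533, 1888 and 2079.5 in the sham hearts, 2993, 3505, 2755 and 3155 in the MI+PBS hearts and 2717, 2637, 3833 and 3029 in the MI+Agrin hearts. The sham and infarcted ranges were separate here too, with a gap from 2533 to 2637. The difference was 0.47 ± 0.12 (SE; adjusted p = 0.00825).

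The other membrane and viperin genes passed no test after infarction. Bst2 (tetherin), which holds budding virus at the cell surface, differed by 0.19 ± 0.16 (SE; adjusted p = 0.363), Rsad2 (viperin), an antiviral radical SAM enzyme, by 0.064 ± 0.27 (SE; adjusted p = 0.867) and Rtp4, a receptor transporter, by 0.036 ± 0.27 (SE; adjusted p = 0.928). In each the MI+PBS range lay across the sham range. Rsad2 varied widely in sham hearts, from 183 in Sham 4 to 473 in Sham 2.

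Of 5 transcription factors, Irf8 was higher and 4 passed no test. Irf8, which directs the development of monocytes and dendritic cells, was at 356, 332, 272 and 336 in the sham hearts, 552, 533, 392 and 445 in the MI+PBS hearts and 380.0, 488, 566 and 491 in the MI+Agrin hearts. Every infarcted heart was above every sham heart, with 356 the highest sham and 380.0 the lowest infarcted value. The difference was 0.56 ± 0.14 (SE; adjusted p = 0.00518). The summed level of 14 macrophage markers was likewise higher in every infarcted heart than in every sham heart, with 29614 and 35800 nearest to each other, and its part in this result was not tested. Irf1, a main target of interferon-gamma and the most abundant factor of the list per kb, was at 765, 809, 653 and 745 in the sham hearts, 745, 687, 587 and 673 in the MI+PBS hearts and 744, 654, 883 and 786 in the MI+Agrin hearts. The 3 groups overlapped throughout, with a difference of -0.14 ± 0.1 (SE; adjusted p = 0.264). Stat2 and Irf9, partners in the type I complex, differed by 0.017 ± 0.14 (SE; adjusted p = 0.934) and -0.029 ± 0.10 (SE; adjusted p = 0.841). Irf7, which amplifies interferon production, ranged from 202 to 428 in sham and from 347 to 571 in MI+PBS hearts, with a difference of 0.39 ± 0.39 (SE; adjusted p = 0.445).

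The cytosolic sensors of viral RNA are MDA5 (Ifih1), RIG-I (Ddx58) and LGP2 (Dhx58). Dhx58 was at 106, 111, 51.8 and 103 in the sham hearts, 167, 199.8, 137 and 154 in the MI+PBS hearts and 75.0, 145, 240.3 and 184 in the MI+Agrin hearts. All MI+PBS hearts were above all sham hearts, and Sham 4 was far below the other sham hearts. The difference was 0.86 ± 0.32 (SE; adjusted p = 0.0435), but the call held in only 13 of 25 settings. It was lost without any 1 of 8 libraries (Sham 2, 4 and 5, all 4 of MI+PBS and MI+Agrin 3). It was also lost with no filter, no trend, the replicate block and edgeR, at adjusted p up to 0.135. Ddx58, the most abundant sensor per kb, was at 664, 669, 542 and 672 in the sham hearts, 757, 724, 583 and 541 in the MI+PBS hearts and 533, 649, 872 and 791 in the MI+Agrin hearts. The groups overlapped, and the difference was 0.024 ± 0.15 (SE; adjusted p = 0.914). Ifih1 ranged from 287 to 383 in sham and from 269 to 327 in MI+PBS hearts, with a difference of -0.18 ± 0.16 (SE; adjusted p = 0.384).

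The 3 genes of the ISG15 system passed no test after infarction. Isg15, a ubiquitin-like protein, differed by 0.59 ± 0.38 (SE; adjusted p = 0.233), and its 95% interval ran from -0.24 to 1.41. Its groups did not overlap, by a narrow margin between the highest sham value of 167.15 and the lowest MI+PBS value of 167.43. Usp18, the protease that removes ISG15, differed by 0.39 ± 0.34 (SE; adjusted p = 0.366). Trim25, the ligase that activates RIG-I and the most abundant of the 3 per kb, was at 1590.0, 1429.8, 1559.7 and 1571 in the sham hearts, 1672, 1554, 1735 and 1778 in the MI+PBS hearts and 1358, 1709, 1630.4 and 1844 in the MI+Agrin hearts. Its groups overlapped and differed by 0.13 ± 0.083 (SE; adjusted p = 0.219).

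IFIT proteins bind foreign RNA and block its translation, and their 3 genes lie together on chromosome 19. Ifit2, the most abundant per kb, was at 628, 444, 471 and 551 in the sham hearts, 552, 598, 425 and 403 in the MI+PBS hearts and 314, 517, 647 and 544 in the MI+Agrin hearts. The ranges of the 3 groups lay across each other, with a difference of -0.088 ± 0.20 (SE; adjusted p = 0.75). Ifit1 and Ifit3 differed by 0.17 ± 0.36 (SE; adjusted p = 0.731) and 0.085 ± 0.39 (SE; adjusted p = 0.878). Among enzymes of double-stranded RNA, Eif2ak2 (PKR), the kinase that halts translation, was at 807, 774, 712 and 705 in the sham hearts, 717, 937, 575 and 610.1 in the MI+PBS hearts and 508, 639.6, 795 and 714 in the MI+Agrin hearts. MI+PBS 2 was above the sham range, MI+PBS 3 and 5 below it and MI+PBS 1 within it. The difference was -0.10 ± 0.15 (SE; adjusted p = 0.614). Oas1a, which makes the messenger that activates RNase L, had separate ranges of 52.8 to 67.7 in sham and 77.5 to 115 in MI+PBS hearts, but missed the threshold at 0.76 ± 0.34 (SE; adjusted p = 0.0881). It was called higher in 7 of 25 settings, among them the fit without MI+Agrin 1 (adjusted p = 0.0138), without MI+Agrin 4 (0.0334) and over only the 8 libraries compared (0.00364). Oasl2, a relative of the OAS enzymes, differed by 0.30 ± 0.21 (SE; adjusted p = 0.264).

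Parp9 and Dtx3l, which act as 1 ubiquitin ligase complex, and Parp14, an ADP-ribosyltransferase, passed no test over all 12 hearts. Parp14, the most abundant of them per kb, was at 1562, 1334, 1112 and 1288 in the sham hearts, 1292, 1106, 1029 and 883 in the MI+PBS hearts and 911, 1196, 1513 and 1391 in the MI+Agrin hearts. The lowest MI+PBS hearts lay below all sham hearts but the groups overlapped, with a difference of -0.30 ± 0.16 (SE; adjusted p = 0.138). For Dtx3l it was -0.18 ± 0.11 (SE; adjusted p = 0.214), and -0.29 without Sham 4, where it was called lower (adjusted p = 0.0329). With both Sham 4 and MI+Agrin 1 left out, Dtx3l and Parp14 were called lower. For Parp9 the difference was 0.073 ± 0.11 (SE; adjusted p = 0.609). Of the remaining 5 members, Ifi35, an interferon-induced leucine zipper protein, was at 494, 475, 444 and 453 in the sham hearts, 519.9, 572, 539.5 and 535 in the MI+PBS hearts and 442, 537, 699 and 522 in the MI+Agrin hearts. The sham and MI+PBS ranges were separate, yet the difference of 0.22 ± 0.11 (SE; adjusted p = 0.127) missed the threshold. It passed without MI+Agrin 4 (adjusted p = 0.032) and over only the 8 libraries compared (0.0208). Differences of the others (Ifi44, Samd9l, Xaf1 and Tap1) ran from -0.02 to 0.41, with Tap1, the peptide pump of antigen presentation, at -0.0073 ± 0.26 (SE; adjusted p = 0.985).

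No member was called between MI+Agrin and MI+PBS hearts, where 0.751% of all genes were called higher and 0.892% lower with limma. At an unadjusted p under 0.05 there were 3 members (7.69%), beside 18.8% of all genes. edgeR and DESeq2, run on whole reads without Sham 2, also called 0 members, beside 192 and 602 of 14906 genes. Both also had 3 members at an unadjusted p under 0.05, with no share over all genes at that threshold given for either tool. By limma the 3 were Gbp2, Gbp4 and Gbp7, all GTPases, and all 3 had higher means with agrin. All 3 were also among the genes called lower in MI+PBS than in sham hearts. Both comparisons use the same MI+PBS hearts, so values low there by their spread enter both, in opposite directions. The groups did not overlap in 2 members (5.13%), Gbp2 and Gbp4, beside 9.04% of all genes. The median member difference was 0.11, with 29 members above 0, beside 0.0000 over all genes. It was -0.02 without MI+Agrin 4 and 0.24 without MI+Agrin 1. The 95% intervals reached 0.354 to each side in the median member, from 0.179 for Trim25 to 0.935 for Ifi44.

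Gbp2 differed by 0.31 ± 0.11 (SE; adjusted p = 0.167), and its adjusted p was 0.0416 without Sham 4. The MI+Agrin hearts, from 955 to 991, lay between most sham hearts and all MI+PBS hearts. Gbp4 differed by 0.45 ± 0.18 (SE; adjusted p = 0.215), with every MI+Agrin heart at 405 or above and every MI+PBS heart at 402 or below. Gbp7 differed by 0.30 ± 0.12 (SE; adjusted p = 0.218), where MI+Agrin 1 at 779 lay below MI+PBS 1. The intervals of the 3 were 0.075 to 0.54, 0.057 to 0.84 and 0.035 to 0.57. Iigp1 differed by 0.086 ± 0.22 (SE; adjusted p = 0.866) between the infarcted groups. All 8 GTPase differences lay above 0, from 0.06 to 0.45, with a median of 0.29. The same MI+PBS hearts gave the low GTPase values against sham, so this is not a separate result.

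Among the members that infarction raised, none differed past the threshold between MI+Agrin and MI+PBS. The differences were 0.18 ± 0.13 (SE; adjusted p = 0.493) for Ifitm1, -0.11 ± 0.084 (SE; adjusted p = 0.502) for Ifitm2 and -0.033 ± 0.12 (SE; adjusted p = 0.914) for Ifitm3. Irf8 differed by 0.00074 ± 0.14 (SE; adjusted p = 0.999), with an interval of -0.30 to 0.30. Dhx58 differed by -0.14 ± 0.32 (SE; adjusted p = 0.854), with an interval of -0.83 to 0.56. A missed threshold does not show equal levels, and in Dhx58 the interval is wide.

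**Figure D4:**
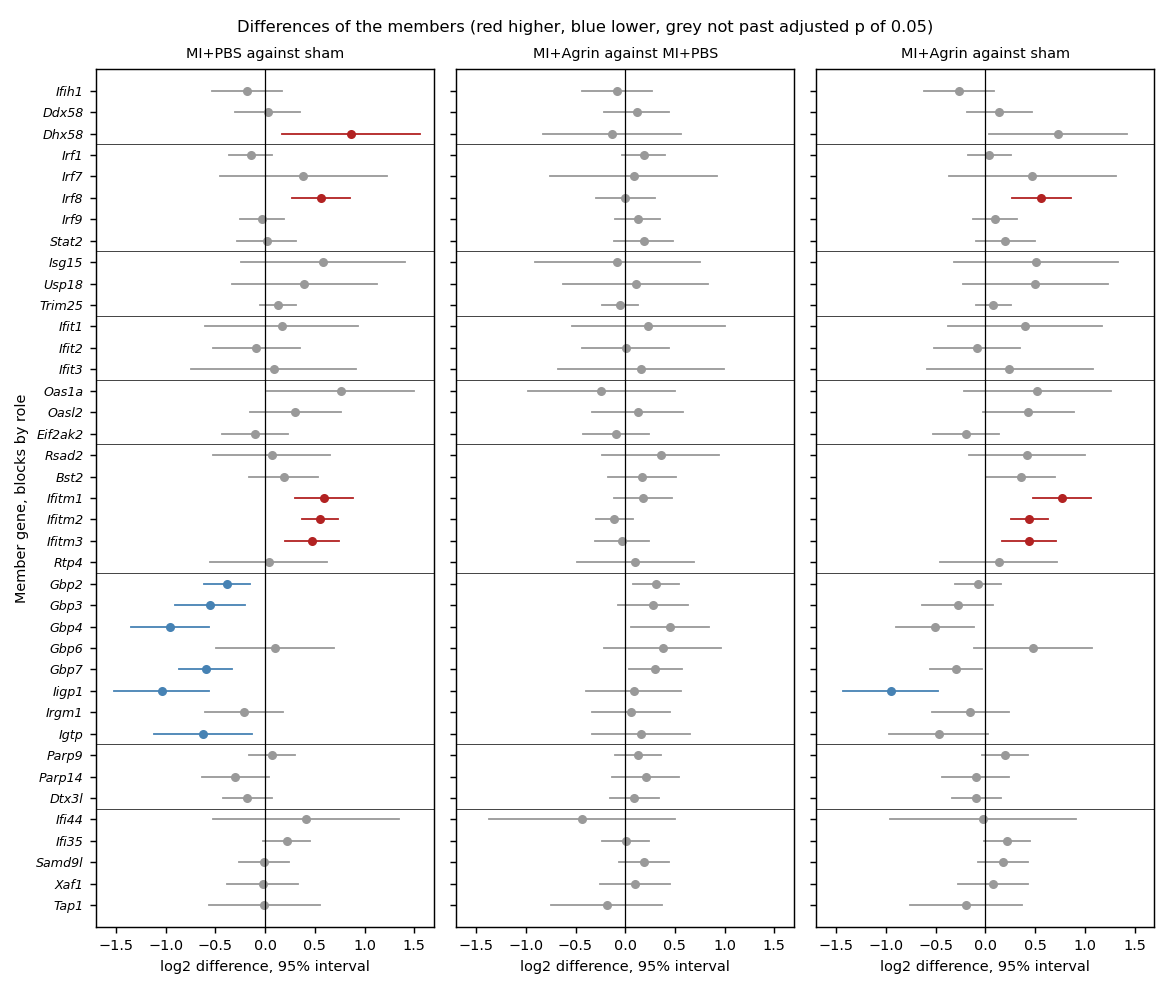
Log2 difference of each member with its 95% interval in the 3 comparisons, in blocks by role; red points passed as higher, blue as lower, and grey points did not reach an adjusted p of 0.05. In MI+PBS against sham the GTPases Gbp2, Gbp3, Gbp4, Gbp7, Iigp1 and Igtp lie left of 0, and no point is coloured in MI+Agrin against MI+PBS.

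Against sham hearts, MI+Agrin hearts had 4 members higher (Irf8, Ifitm1, Ifitm2 and Ifitm3) and Iigp1 lower. These were 10.3% of the members beside 15.4% of all genes, and 2.56% beside 13.2%. The groups did not overlap in 5 members (12.8%), beside 32.4% of all genes. This comparison shares its sham hearts with the first one, so the values stand side by side. Ifitm1 differed by 0.77 ± 0.13 (SE; adjusted p = 0.00166), Ifitm2 by 0.44 ± 0.084 (SE; adjusted p = 0.00266) and Ifitm3 by 0.44 ± 0.12 (SE; adjusted p = 0.0196). For Irf8 the difference was 0.56 ± 0.14 (SE; adjusted p = 0.00952). Iigp1 differed by -0.95 ± 0.22 (SE; adjusted p = 0.00752), close to its value without agrin. The other GTPases that were lower in MI+PBS hearts did not pass here, with Gbp4 at -0.51 ± 0.18 (SE; adjusted p = 0.051), Gbp7 at -0.30 ± 0.12 (SE; adjusted p = 0.0891), Igtp at -0.47 ± 0.23 (SE; adjusted p = 0.142), Gbp3 at -0.28 ± 0.16 (SE; adjusted p = 0.227) and Gbp2 at -0.074 ± 0.11 (SE; adjusted p = 0.645).

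The count of higher members in MI+Agrin against sham depended on MI+Agrin 1. Without it 12 members were higher, with Dhx58, Irf7, Isg15, Usp18, Ifit1, Oas1a, Bst2 and Ifi35 added to the 4 above, beside 15.2% of all genes called higher in that fit. Without Sham 4 there were 3 higher members and 4 lower, with Gbp3, Gbp4 and Gbp7 beside Iigp1, while 11.8% and 8.8% of all genes were called. The median member difference was 0.14, beside -0.0021 over all genes. It was 0.28 without MI+Agrin 1, 0.07 without Sham 4 and 0.03 without MI+Agrin 4. Ifitm3 lost its call without Sham 4, Sham 5 or MI+Agrin 4.

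The members varied more between hearts of 1 group than genes in general. The median within-group SD was 0.26 on the log2 scale, beside 0.155 over all genes, and 36 of 39 members were above that value. Without Sham 4 and MI+Agrin 1 the medians were 0.194 and 0.151, with 31 of 39 members above the latter. Isg15, Irf7 and Ifit1, targets of type I interferon, spread more in the agrin group than in the other groups. Isg15 was at 152, 167, 88.8 and 153 in the sham hearts, 200.2, 295, 167 and 178 in the MI+PBS hearts and 75.0, 233, 349 and 231 in the MI+Agrin hearts. The highest MI+Agrin heart had 4.66 times the lowest, against 1.76 times in MI+PBS hearts. Irf7 was at 428, 419, 202 and 392 in the sham hearts, 571, 527, 347 and 396 in the MI+PBS hearts and 199.7, 425, 821 and 753 in the MI+Agrin hearts. MI+Agrin 1 and Sham 4 were lowest and nearly equal, and MI+Agrin 4 and 5 stood above every other heart. Ifit1 was at 204, 198, 95.1 and 181 in the sham hearts, 214, 217, 155 and 155 in the MI+PBS hearts and 93.2, 237, 359 and 267 in the MI+Agrin hearts, with the same hearts low and high; these 3 genes were picked after their values were seen. Gbp2, by contrast, varied least in that group, 1.04 times between the highest and the lowest heart.

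Seen by library, the GTPases and the other 31 members parted. Relative to the sham mean, the median GTPase was at -0.33, -0.78, -0.57 and -0.71 in the MI+PBS hearts and at -0.48, -0.20, -0.13 and -0.24 in the MI+Agrin hearts. The median of the other 31 was at 0.26, 0.31, -0.06 and -0.07 in the MI+PBS hearts and at -0.25, 0.14, 0.58 and 0.39 in the MI+Agrin hearts. In Sham 4 both medians were low, at -0.44 and -0.26. Sham 3 was the highest sham heart in 7 of 8 GTPases.

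**Figure D5:**
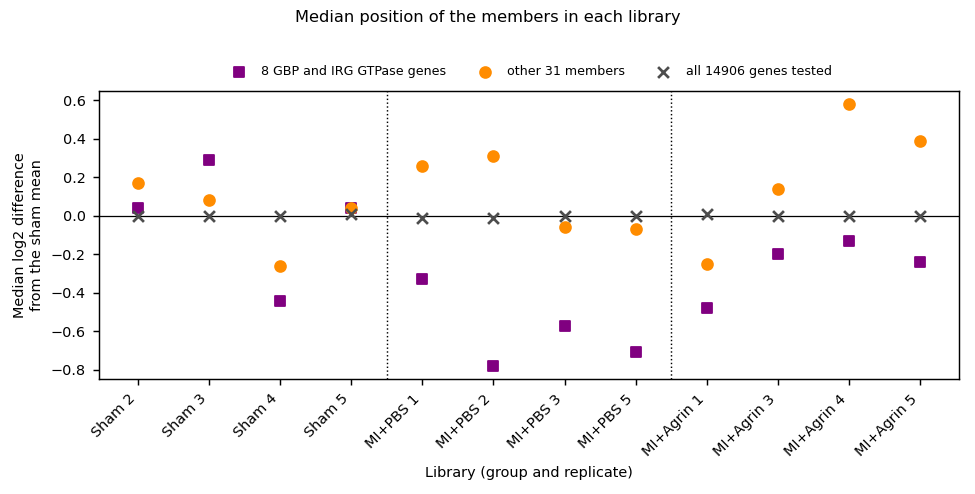
Median log2 difference from the sham mean in each heart, for the 8 GTPase genes (squares), the other 31 members (circles) and all 14906 genes (crosses). The GTPase medians lie below 0 in all 8 infarcted hearts, from -0.78 to -0.13, while the other members range from -0.25 in MI+Agrin 1 to 0.58 in MI+Agrin 4.

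In Sham 4, MI+Agrin 1 and MI+Agrin 4, the summed macrophage markers were low or high within their groups as the members were. The summed level of 14 macrophage markers was 23787 to 29614 normalized counts in sham, 46783 to 54398 in MI+PBS and 35800 to 53773 in MI+Agrin hearts, and 14 of 14 were higher in MI+PBS than in sham hearts. Sham 4 had the lowest sum of its group and MI+Agrin 1 the lowest of its group (35800), while MI+Agrin 4 had the highest of its group (53773). Single markers did not all follow the sum in MI+Agrin 1. Lyz2, the largest part of the sum, was at 14429 in MI+Agrin 1 and 21487 in MI+Agrin 3. Cd163 went the other way, at 1843 and 982, as did C1qa, at 2633 and 2354. MI+PBS 1 was the highest of its group in 18 of 39 members and in macrophage sum (54398). MI+PBS 5 was the lowest of its group in 19 of 39 members, yet its macrophage sum (52949) was above those of MI+PBS 2 (52433) and MI+PBS 3 (46783). The summed 7 neutrophil markers were 314 to 505 in sham and 746 to 1355 in MI+PBS and 735 to 1252 in MI+Agrin hearts, with Sham 4 at 397 between the other sham hearts, MI+Agrin 1 the lowest and MI+Agrin 4 the highest of their group. Markers of T and NK cells were low, at 110 to 186 in sham, 135 to 230 in MI+PBS and 90 to 152 in MI+Agrin hearts, with Gzmb at 0 in at least 1 library. Here Sham 4 (110) and MI+Agrin 1 (90) were the lowest of their groups, but MI+Agrin 4 (145) was slightly below MI+Agrin 3 (151) and 5 (152). The order of these last hearts depended on Cd4, at 39.4 in MI+Agrin 4, 65.2 in MI+Agrin 3 and 50.8 in MI+Agrin 5. Those of B cells ranged from 139 to 370 in sham, 147 to 286 in MI+PBS and 154 to 376 in MI+Agrin hearts, with Pax5 at 0 in at least 1 library, and MI+Agrin 1 had the highest B cell sum of its group (376). Sums of 10 dendritic cell markers ranged from 622 to 810 over all hearts, with MI+Agrin 4 at 701, below MI+Agrin 3 (777) and MI+Agrin 5 (750). Endothelial marker sums were 29565 to 32560 in sham, 28068 to 30891 in MI+PBS and 28975 to 30557 in MI+Agrin hearts. Fibroblast sums, in the same group order, were 150905 to 172583, 214562 to 234415 and 197211 to 232678. These sums do not stand for every fibroblast marker. Of 9 tested after infarction with PBS, 3 passed as raised (Col1a1, Col1a2 and Postn) and 2 as reduced (Gsn and Tcf21). The median of their differences was 0.0972. With agrin, the same 3 passed as raised against sham and 0 as reduced. Cardiomyocyte sums were highest in Sham 4 (2013442) and lowest in MI+PBS 2 (1107802). Their part in the members' values was not tested. In RNA of mixed heart tissue, fewer cells of a type and less RNA per cell cannot be told apart, and the part of the heart taken is not given.

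Further genes of the pathway were read from lists by role, and the counts below stand beside 22.6% of all genes higher and 21.8% lower in MI+PBS against sham. For MI+Agrin against MI+PBS these shares were 0.751% and 0.892%, and for MI+Agrin against sham 15.4% and 13.2%. Of 15 interferon and receptor genes, the 6 receptor genes were in the table used here. After infarction 2 receptor chains were higher and 3 lower. Ifngr1, the binding chain for interferon-gamma, differed by 0.40 ± 0.087 (adjusted p = 0.00276) and Ifnar1, a chain of the type I receptor, by 0.34 ± 0.082 (adjusted p = 0.00474). Ifngr2, the signalling chain for interferon-gamma, was at -0.56 ± 0.066 (adjusted p = 6.44e-05), and Il10rb, shared by the type III and IL-10 receptors, was at -0.40 ± 0.07 (adjusted p = 0.000716). Ifnlr1, the type III chain, was at -0.45 ± 0.14 (adjusted p = 0.0225). None of the 6 passed between MI+Agrin and MI+PBS, the smallest p being that of Il10rb at 0.15 ± 0.07 (adjusted p = 0.261).

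Of 18 genes of signal transduction, 6 rose and 2 fell after infarction, beside 22.6% and 21.8% of all genes. Socs3, a feedback inhibitor of JAK kinases, differed by 2.06 ± 0.18 (adjusted p = 1.71e-05), Ptpn6 (SHP-1), a phosphatase of blood cells, by 0.98 ± 0.15 (adjusted p = 0.000262), Irf5, a factor of macrophages, by 0.87 ± 0.17 (adjusted p = 0.00115) and Cish, another inhibitor, by -0.58 ± 0.11 (adjusted p = 0.00117). Irf2bp1, a corepressor, was the other that fell. Of 21 genes of nucleic acid sensing, 8 were higher and 1 lower. The higher ones included Tmem173 (STING), the adaptor of DNA sensing, at 0.78 ± 0.10 (adjusted p = 0.000113), Tlr7, a sensor of RNA in endosomes, at 1.20 ± 0.20 (adjusted p = 0.000421) and Myd88, the adaptor of Toll-like receptors, at 0.62 ± 0.10 (adjusted p = 0.000459). The lower one was Mavs, the adaptor of RIG-I and MDA5, at -0.28 ± 0.048 (adjusted p = 0.000629). Between the infarcted groups 1 of the 18 was lower, beside 0.892% of all genes. It was Irf2bp2, a relative of Irf2bp1, at -0.72 ± 0.11 (adjusted p = 0.00464). None of the 21 passed, the smallest p being that of Mavs at 0.15 ± 0.048 (adjusted p = 0.127).

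Other genes of the interferon-gamma GTPase and antigen processing list were counted next. Of 24 tested, 11 were lower and 1 higher after infarction, with a median difference of -0.37 beside -0.01 over all genes. Cd274 (PD-L1), a ligand that restrains T cells, was at 303, 273, 231 and 303 in the sham hearts, 164, 162, 143 and 145 in the MI+PBS hearts and 251, 245, 243 and 232 in the MI+Agrin hearts. The MI+PBS hearts were below all others. It differed by -0.85 ± 0.097 (adjusted p = 5.22e-05) from sham and by 0.66 ± 0.097 (adjusted p = 0.00462) between MI+Agrin and MI+PBS. Both differences use the same MI+PBS hearts. Gbp5 was at 397, 496, 292 and 398 in the sham hearts, 224, 166, 227 and 175 in the MI+PBS hearts and 313, 339, 312 and 264 in the MI+Agrin hearts, also with the MI+PBS hearts below all others. Its difference was -0.98 ± 0.15 (adjusted p = 0.000337). Psme1, a subunit of the proteasome activator, differed by -0.36 ± 0.066 (adjusted p = 0.000813). The higher gene was Ifi30, a lysosomal thiol reductase of antigen-presenting cells, at 1.26 ± 0.14 (adjusted p = 4.16e-05). In MI+Agrin against sham 9 were lower and 1 higher, with the same sham hearts, beside 13.2% and 15.4% of all genes.

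Of 50 further induced genes in the table, 14 were higher and 2 lower after infarction, beside 22.6% and 21.8% of all genes, with a median difference of 0.26 beside -0.01 over all genes. Tnfsf10 (TRAIL), a ligand that triggers cell death, was at 697, 654, 498 and 598 in the sham hearts, 291, 237, 281 and 237 in the MI+PBS hearts and 461, 619, 529 and 459 in the MI+Agrin hearts. Its MI+PBS hearts, used in both differences, lay far below both other groups. It differed by -1.22 ± 0.12 (adjusted p = 3.03e-05) from sham and by 0.98 ± 0.12 (adjusted p = 0.002) between MI+Agrin and MI+PBS. The higher ones included Ifi204, a DNA-binding protein of macrophages, at 0.84 ± 0.12 (adjusted p = 0.00014), Shisa5 at 0.57 ± 0.089 (adjusted p = 0.000335) and Slfn2, a regulator of T cell quiescence, at 1.11 ± 0.20 (adjusted p = 0.000837). The other lower gene was Trim21, an antibody receptor of the cytosol, at -0.41 ± 0.11 (adjusted p = 0.0105). Tnfsf10 was the 1 gene of these 50 called between the infarcted groups, where 0.751% of all genes were called higher and 0.892% lower.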

How the data were processed

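Poly(A) RNA of 12 hearts was sequenced with single reads. Per the submitters' processing notes, the tools were cutadapt, STAR 2.4.2a, HTSeq and DESeq2 1.10.1 on mm10; whether strand was counted is not given in the sources used here. Each gene's deposited signal is a count normalized by the authors. Values were whole multiples of 1 step per library (at least 99.994% within 0.0055). In 11 libraries this gave 20238512 to 22742027 reads; the step of Sham 2, 1.010795, lay too near 1 to be told from rounding, so Sham 2 was left out of tests on reads. Values were taken as log2(value + 1), genes with a mean of at least 5 kept, and 3 group means fitted over all 12 libraries in limma 3.58.1 under R 4.3.3, with a trend of variance on intensity and Benjamini-Hochberg adjustment over 14906 genes. A fold change on that scale understates change in low genes. Alternatives were pseudocounts of 0.5 and 5, no filter, a mean of at least 50, TMM rescaling, no trend, only the 8 libraries compared, a replicate block, a threshold of 0.1, tests of the recovered reads in edgeR 4.0.16 and DESeq2 1.42.0, each library left out, and a pair left out. The fit was checked on made-up data with known changes. Members and lists were chosen with earlier results of these data known. All 39 members are covered; values in every heart are given for members past the threshold, the 3 with the smallest p in each comparison and the most abundant of each role. Lists name up to 4 genes by smallest p. Promoters are from RefSeq (GRCm38.p6) and positions from GENCODE M21. Among those 11, no pair of libraries in a group was alike within sampling noise (chi-square of 9.51 or more per gene); pairs with Sham 2 were not tested. p-values measure the spread between these hearts.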

Additional observations from a re-analysis of the deposited data

Results flagged for a closer look

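In 117 groups of 4 hearts (39 members in 3 groups), 6 had 1 heart far from the other 3, by Dixon's ratio of gap to range; chance gives about 1 in 20 groups. Sham 4 was such a heart in 4 of them. In sham hearts Ddx58 was at 542.07 in Sham 4 and at 664 to 672 in the others. Dhx58 was at 51.78 in Sham 4, beside 103 to 111. Irf7 was at 201.82 in Sham 4, beside 392 to 428. Gbp6 was at 315.95 in Sham 4, the highest, beside 274 to 281. Ifitm1 was at 100.07 in Sham 2, the highest, beside 78.8 to 81.8. In MI+Agrin hearts Ifitm1 was at 117.57 in MI+Agrin 5, the lowest, beside 155 to 157.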

How the results depend on the processing

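In MI+PBS against sham, the counts of 5 higher and 6 lower members stayed within 1.5 times under every alternative run. The members behind them changed, and Dhx58 and Igtp were each called in only 13 of 25 settings. In MI+Agrin against MI+PBS the count of higher members was 0, and 0 to 1 with each library left out (Gbp2, without Sham replicate 4). In that fit 0.67% of all genes were called higher. In MI+Agrin against sham, higher members numbered 3 to 12 with each library left out, beside 11.8% to 16.7% of all genes. They numbered 14 with MI+PBS 2 and MI+Agrin 1 left out together, where 4732 of 14876 genes were called in either direction. With Sham 4 and MI+Agrin 1 left out together, a pair chosen after seeing the data, they numbered 7. There 3029 of 14897 genes were called in either direction. Shares by direction are not given here for either pair, so the counts with a pair left out have no like share beside them. Lower members numbered 1 to 4 with each library left out, beside 8.8% to 14.9% of all genes, and 3 with that last pair left out. They numbered 2 with the replicate block (3660 of 14906 genes called in either direction) and 2 by DESeq2 (3897 of 14906). With a mean of at least 50 they numbered 2, and at a threshold of 0.1 they numbered 3. For the replicate block, DESeq2, this filter and this threshold no share of all genes called lower is given here. Those counts of lower members cannot be set against genes in general. The cause was not tested. Deviations of same-numbered hearts correlated at a median of -0.111 over 9 pairs, with 1 pair over 0.1. Over 39 pairs of other numbers the median was 0.0211, with 11 over 0.1. These values gave no sign that label numbers pair the hearts, but so few pairs cannot exclude it. With the replicate block, 6 members were higher and 5 lower in MI+PBS against sham, 0 were called in MI+Agrin against MI+PBS, and 4 were higher and 2 lower in MI+Agrin against sham. Over all genes that fit called 5727, 75 and 3660 of 14906 in either direction. TMM rescaling moved the median of all genes by at most 0.0042. The median member difference changed sign in MI+PBS against sham (main value 0.036) without Sham 4 (-0.078), MI+PBS 1 (-0.016) or MI+PBS 2 (-0.032), and in MI+Agrin against MI+PBS (main value 0.107) without MI+Agrin 4 (-0.015); no called member changed sign. With 4 hearts a group, the 95% interval of the median member reached 0.354 to each side on the log2 scale.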
